A study of Mus musculus with 4 samples.

Results

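Genes that encode inhibitors of the kinase complex mTORC1 were followed in R1 mouse embryonic stem cells. The 8 genes were Ddit4 and its paralog Ddit4l, the sestrin genes Sesn1, Sesn2 and Sesn3, the tuberous sclerosis genes Tsc1 and Tsc2, and Deptor. They were picked by symbol from 55401 genes in the deposited table, each matched 1 identifier there, and all 8 passed the filter on low counts. Ddit4 had stood out in an earlier comparison of these same libraries, so the differences between groups for these genes are given below as a description. Calls by the tests across all genes are counted once for them, and nothing is read from those counts. The control group, labelled CTL, had the genotype WT, and the other group had the genotype Usp28 KO (knockout). Each group had 2 libraries. Cells of both groups were grown on 0.2% gelatin in N2B27 medium with LIF at 10 ng/ml and 2 kinase inhibitors, PD0325901 (against MEK, 1 μM) and CHIR99021 (against GSK3, 3 μM). The labels do not say how the knockout was made, how many clones it comprised, or whether replicates were grown as separate cultures, so the spread between them may be technical.

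mTORC1 couples growth to nutrients, oxygen and growth factors, and is switched on at the lysosome by the small GTPase Rheb. The TSC1-TSC2 complex turns Rheb off, DDIT4 (also called REDD1) acts through that complex when cells lack oxygen or energy or meet glucocorticoids, and the sestrins hold back the amino acid branch by binding the GATOR2 complex. DEPTOR binds mTOR itself. In mouse embryonic stem cells and blastocysts, partial inhibition of mTOR is known to bring about a reversible pause of growth.

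The libraries held 16595196 to 19533608 counts, with 22304 to 22810 genes detected in each. Mitochondrially encoded genes held 2.77% and 5.65% of the counts in CTL and 1.92% and 3.33% in Usp28 KO. The part of this share in the results was not tested. The 8 embryonic stem cell markers summed to 5011 and 5249 CPM (counts per 1000000, scaled between libraries) in CTL and to 5296 and 5337 CPM in Usp28 KO. Fibroblast feeder markers summed to at most 1.07 CPM, with Postn and Lum at 0. Of 4 trophectoderm markers 1 passed the filter on low counts. Their sum, of which Krt8 was the largest part, was 8.58 and 9.83 CPM in CTL and 11.7 and 11.9 CPM in Usp28 KO. The 4 neural progenitor markers, with Tubb3 the most abundant, all passed the filter. Their sum was 73.3 to 107 CPM in CTL and 81.8 to 82.3 CPM in Usp28 KO. Mesoderm markers summed to at most 21.9 CPM and primitive endoderm markers to at most 12.4 CPM. The part of these markers in the results was not tested. Usp28 itself had 3690 and 3120 counts in CTL and 3392 and 3319 in Usp28 KO, a log2 fold change of -0.11 ± 0.15 (SE; edgeR, adjusted p = 0.857). This count is no check of the genotype, so each direction below is between the libraries labelled Usp28 KO and CTL. By edgeR, 0 of 15341 tested genes passed an adjusted p of 0.05, while 1052 were higher and 666 lower at an unadjusted p under 0.05. DESeq2 called 82 higher and 50 lower of the 13173 genes to which it gave an adjusted p, and limma-voom called 0.

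Ddit4 (ENSMUSG00000020108.4) lies on mm10 chromosome 10, 59949669 to 59951834, on the minus strand, in 3 exon blocks of 1755 bases in all. Its paralog Ddit4l (ENSMUSG00000046818.7) lies on chromosome 3, 137621612 to 137628333, on the plus strand. The promoter windows of this pair are shown because 1 paralog differed in level between the groups and the other overlapped. Each runs from 250 bases before to 50 bases after the RefSeq start site on GRCm38.p6, the build of mm10, at chr10:59951721-59952020 (minus strand) and chr3:137623422-137623721 (plus strand). Capitals mark the core letters of the hypoxia-inducible factor (HIF) site, ACGTG or GCGTG, on either strand, so that CACGT and CACGC also count.
Ddit4: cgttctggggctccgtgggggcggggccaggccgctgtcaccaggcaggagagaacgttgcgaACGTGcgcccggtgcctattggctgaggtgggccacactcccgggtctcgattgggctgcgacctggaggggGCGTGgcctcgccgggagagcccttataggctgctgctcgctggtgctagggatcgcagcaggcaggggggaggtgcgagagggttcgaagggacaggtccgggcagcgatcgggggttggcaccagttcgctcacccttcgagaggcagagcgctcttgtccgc
Ddit4l: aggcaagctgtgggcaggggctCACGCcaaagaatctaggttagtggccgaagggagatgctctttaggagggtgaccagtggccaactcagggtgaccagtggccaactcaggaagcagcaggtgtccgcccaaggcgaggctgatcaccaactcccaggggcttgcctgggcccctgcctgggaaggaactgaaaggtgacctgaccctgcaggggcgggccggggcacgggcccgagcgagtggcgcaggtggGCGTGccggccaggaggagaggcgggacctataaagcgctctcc
The Ddit4 window had an ACGTG core 187 bases and a GCGTG core 115 bases before the start site. The Ddit4l window had a GCGTG core 6 bases after its start and another on the reverse strand 228 bases before it. RefSeq windows were found for 7 of the 8 genes, and Sesn1 had a second one, which gave 8 windows. ACGTG was found in 1 of these 8, that of Ddit4, and in 19.6% of all 32851 promoter windows. GCGTG was found in 5 of the 8 and in 32.4% of all. The E-box CACGTG, which contains ACGTG, was in 0 of the 8 and 7.15% of all, and the FOXO motif GTAAACA was in 1, a Sesn1 window, and 3.65% of all. The cyclic AMP response element TGACGTCA and the C/EBP-ATF composite element TGATGNAAN were in 0 of the 8, against 1.79% and 3.95% of all windows. The GC box GGGCGG was in 6 of the 8 and in 35.7% of all. The TATA box letters TATAAA were in 1, that of Ddit4l, and in 13.6% of all. In Ddit4l they lay 35 bases after the start site. The 8 windows had 57.3% to 71.0% GC. The GC content of all windows was not computed, and the part of base composition in these matches was not tested. A match is only a string of letters, and binding was not measured here.

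Ddit4 was the most abundant of the 8 per length, and Sesn2 was next. Levels between genes are in RPKM, which is CPM divided by the exon length in kilobases. Over the 4 libraries Ddit4 averaged 87.5 RPKM, above 97.0% of the tested genes, and Sesn2 44.2 RPKM, above 92.7%. Tsc2 followed at 20.4 RPKM. Deptor at 7.69 RPKM and Tsc1 at 7.59 RPKM could not be ordered, because their libraries overlapped. Sesn1, Sesn3 and Ddit4l, at 4.18, 3.66 and 3.65 RPKM, overlapped in the same way and were below the median of the tested genes, with 46.4%, 43.5% and 43.5% of them lower. The first place was not separate in CTL. Ddit4 was at 42.8 and 57.5 RPKM there and Sesn2 at 52.1 and 41.6 RPKM. In Usp28 KO, Ddit4 at 139 and 110.4 RPKM lay above Sesn2 at 37.7 and 45.5 RPKM. Tsc2 lay below both in every library and above the other 5 genes.

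**Figure D1:**
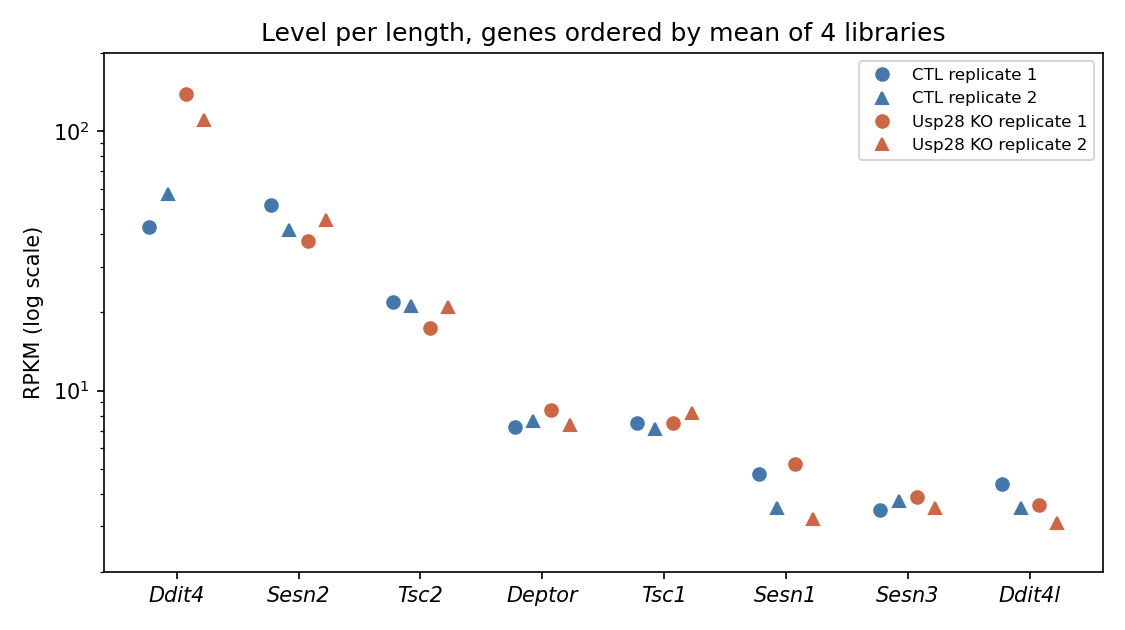
Level per length of the 8 genes in each library, in RPKM on a log scale, ordered by the mean of the 4 libraries; blue is CTL, orange is Usp28 KO, circles are replicate 1 and triangles replicate 2. Ddit4 in CTL (42.8 and 57.5) overlaps the CTL values of Sesn2 (52.1 and 41.6). In Usp28 KO (139 and 110.4) it lies above all other points.

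Ddit4 encodes a stress-induced inhibitor that needs the TSC complex to act. It had 75.1 and 100.8 CPM in CTL and 244 and 194 CPM in Usp28 KO. Both Usp28 KO libraries lay above both CTL libraries, and the ratio of a Usp28 KO library to a CTL library was between 1.92 and 3.25. The group means were 87.98 ± 18.2 and 219 ± 35.9 CPM (SD, n = 2), a ratio of 2.49, and the log2 fold change was 1.32 ± 0.19 (SE). The replicates of a group differed by 0.42 (CTL) and 0.34 (Usp28 KO) on the log2 scale, in both cases less than the 0.94 that separated the nearest libraries of the 2 groups. Among the 15341 tested genes, 217 had a larger log2 fold change. The size depended on the library. It was 1.12 without CTL replicate 1, in which Ddit4 was lowest, and 1.53 without CTL replicate 2. Libraries also differed in how log level, minus its mean in the other libraries, followed transcript GC content. The rank correlation across genes was -0.386 in CTL replicate 2 and 0.365 in Usp28 KO replicate 2. It was 0.0158 in CTL replicate 1 and 0.0508 in Usp28 KO replicate 1. Ddit4 transcripts have 57.9% GC, and after correction for the trend the log2 fold change was 1.12 ± 0.21.

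Ddit4l, which encodes the related protein REDD2, was below the median of the tested genes per length, with 43.5% of them lower. It had 12.7 and 10.3 CPM in CTL and 10.5 and 9.01 CPM in Usp28 KO, so the groups overlapped, and its log2 fold change was -0.24 ± 0.24, or -0.39 to -0.074 with 1 library left out. It rested on 163 to 249 counts a library. Per length, Ddit4 exceeded Ddit4l by 9.80 and 16.3 times in CTL and by 38.5 and 35.7 times in Usp28 KO. The share of Ddit4l in the summed RPKM of the pair was 9.26% and 5.78% in CTL and 2.53% and 2.72% in Usp28 KO.

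**Figure D2:**
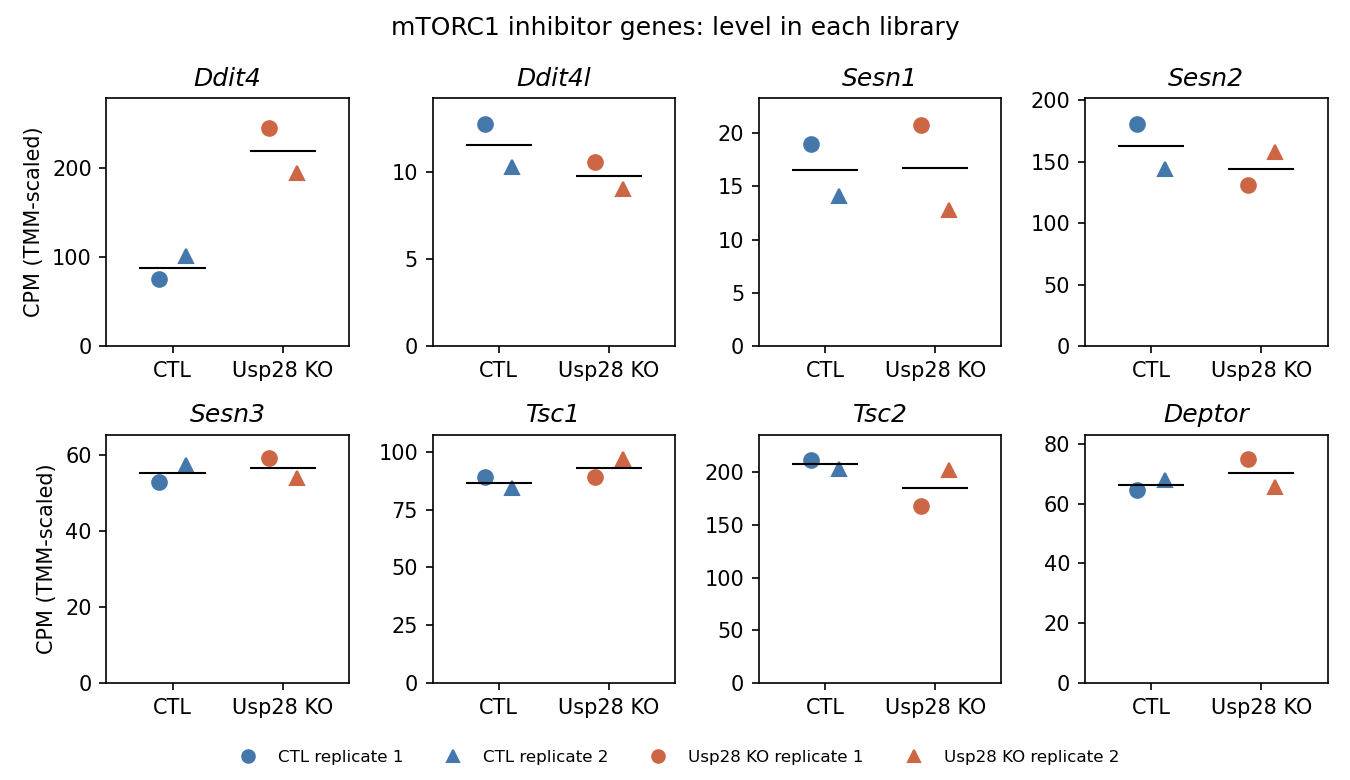
CPM of each gene in each library (points) with the group mean (line); every axis starts at 0 and has its own range. Ddit4 is at 75.1 and 100.8 CPM in CTL and at 244 and 194 CPM in Usp28 KO, while the points of 5 genes overlap between the groups.

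The sestrins sense amino acid supply and oxidative stress, and Sesn2 was the main one here. It is a leucine sensor and a known target of ATF4 and p53. Sesn2 had 181 and 144 CPM in CTL and 131 and 158 CPM in Usp28 KO. The groups overlapped, since Usp28 KO replicate 2 lay between the CTL libraries, and the log2 fold change was -0.17 ± 0.17. After GC correction it was -0.38 ± 0.14, more than 1.5 times the uncorrected size. Sesn2 transcripts have the highest GC content of the 8, at 58.7%. With 1 library left out its log2 fold change ran from -0.33 without CTL replicate 2 to -0.00026 without CTL replicate 1.

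Sesn1, a p53 and FOXO target, differed more between the replicates of a group than between the group means. It had 18.9 and 14.1 CPM in CTL and 20.8 and 12.7 CPM in Usp28 KO, with replicate 1 the higher in both groups. Its log2 fold change was 0.019 ± 0.26, and ran from -0.38 without Usp28 KO replicate 1 to 0.32 without Usp28 KO replicate 2. Sesn3, a FOXO target, had 52.9 and 57.5 CPM in CTL and 59.1 and 53.9 CPM in Usp28 KO. These overlapped, with a log2 fold change of 0.035 ± 0.17, or -0.034 to 0.094 with 1 library left out. Of the summed RPKM of the 3 sestrins, Sesn2 made up 86.4% and 85.1% in CTL and 80.6% and 87.1% in Usp28 KO. Sesn1 made up 6.13% to 11.1% over the 4 libraries, and Sesn3 5.74% to 8.27%.

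Tsc1 and Tsc2 encode the scaffold and the GTPase-activating subunit of the complex that turns Rheb off. Tsc1 had 88.9 and 84.2 CPM in CTL and 89.1 and 96.97 CPM in Usp28 KO. The Usp28 KO libraries were the higher, but the nearest pair differed by 0.0027 on the log2 scale, and the log2 fold change was 0.10 ± 0.16, or 0.036 to 0.16 with 1 library left out. Tsc2 had 212 and 203 CPM in CTL and 168 and 202 CPM in Usp28 KO. Here the Usp28 KO libraries were the lower, with a nearest pair at -0.0096, and the log2 fold change was -0.17 ± 0.16. It was -0.29 ± 0.13 after GC correction, -0.041 without Usp28 KO replicate 1 and -0.31 without Usp28 KO replicate 2. Per length, the ratio of Tsc1 to Tsc2 was 0.341 and 0.337 in CTL and 0.431 and 0.390 in Usp28 KO. Exons of Tsc2 share 693 bases with Pkd1, the polycystin gene on the opposite strand, and the strand setting of the counting is not given in the sources used here. Pkd1 had 66.8 and 61.04 CPM in CTL and 82.98 and 81.1 CPM in Usp28 KO (log2 fold change 0.36 ± 0.16; edgeR, adjusted p = 0.432), and how the counting split shared reads between the 2 genes was not tested.

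Deptor, whose product binds mTOR in both of its complexes, overlapped between the groups. It had 64.4 and 67.97 CPM in CTL and 75.0 and 65.6 CPM in Usp28 KO, and a log2 fold change of 0.087 ± 0.16, or -0.014 without Usp28 KO replicate 1 and 0.18 without Usp28 KO replicate 2. Its exons overlap 303 bases of Gm9920 on the opposite strand, which had at most 10 counts in a library.

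Over the 8 genes, edgeR called 0 at an adjusted p of 0.05, against 0% of all tested genes. At an unadjusted p under 0.05 it called 1 higher, Ddit4, and 0 lower, against 6.86% and 4.34% of all tested genes. DESeq2 called 1 higher, again Ddit4, and 0 lower. Of the 13173 genes to which it gave an adjusted p, it called 0.622% higher and 0.38% lower. Limma-voom called 0, against 0 over all tested genes. It had 1 at an unadjusted p under 0.05, for which no share over all genes was computed. The groups did not overlap for 3 of the 8 (Ddit4, Tsc1 and Tsc2), against 41.8% of all tested genes. The median log2 fold change was 0.027, and -0.0040 over all tested genes. Because the genes were chosen with this contrast known, the choice fixed the calls of Ddit4, and these counts support nothing.

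**Figure D3:**
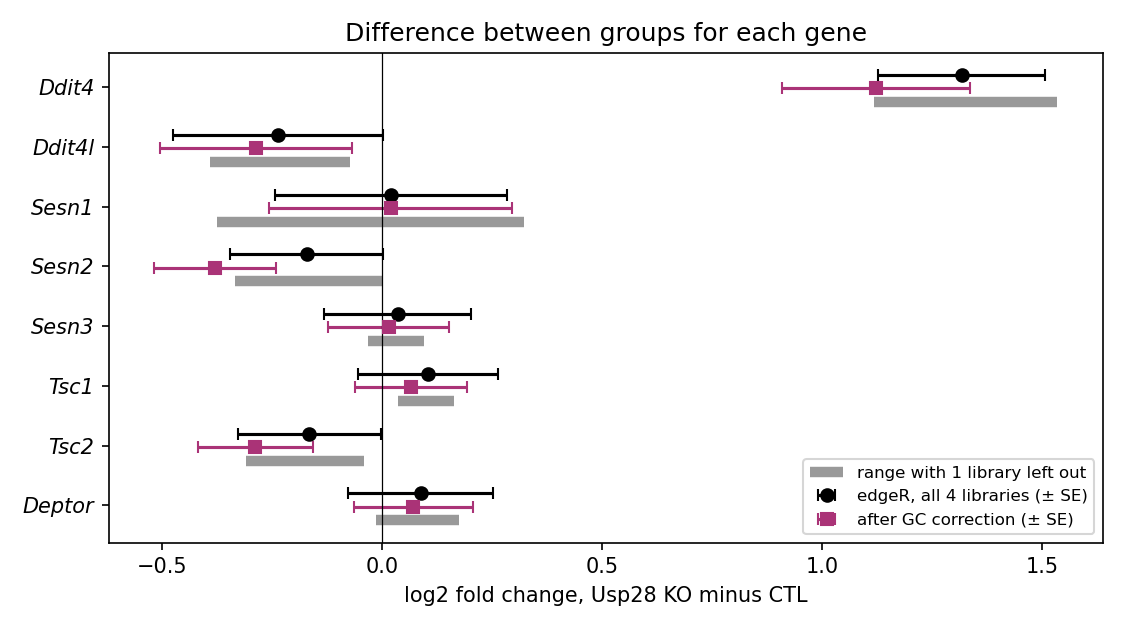
Log2 fold change of each gene, Usp28 KO minus CTL, with its SE, by edgeR on all 4 libraries (black) and after GC correction (purple); the grey bar is the range when 1 library is left out. Ddit4 stays between 1.12 and 1.53 in the grey bar, Sesn1 runs from -0.38 to 0.32, and Sesn2 moves from -0.17 to -0.38 with GC correction.

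Other genes of the pathway were drawn up in 10 lists of 130 genes, of which 125 were tested. By edgeR 0 of the 125 passed an adjusted p of 0.05; at an unadjusted p under 0.05, 8 were higher and 6 lower, against 6.86% and 4.34% of all tested genes. DESeq2 called 1 higher, Txnip, and 0 lower, and limma-voom called 0. At an unadjusted p under 0.05 limma-voom had 6 higher and 5 lower. No share over all genes was computed for these, so nothing is read from them. Both Usp28 KO libraries lay above both CTL libraries for 30 genes and below for 25, against 21.4% and 20.4% of all tested genes. The median log2 fold change was 0.023.

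Within the mTOR complexes, the inhibitory subunit gene Akt1s1, which encodes PRAS40, had the lowest p. It had 61.8 and 45.6 CPM in CTL and 33.97 and 40.2 CPM in Usp28 KO, with no overlap (log2 fold change -0.53 ± 0.20; edgeR, adjusted p = 0.332), -0.81 after GC correction, and -0.75 to -0.30 with 1 library left out. The median of the 10 tested complex genes was 0.017, and the subunit gene Prr5 and the assembly factor gene Tti1 had log2 fold changes of 0.22 and 0.19. The Prr5 value was -0.0060 after GC correction. Rheb, the activator that the TSC complex turns off, had 74.8 and 69.7 CPM in CTL and 75.8 and 64.6 CPM in Usp28 KO, a log2 fold change of -0.042 ± 0.17. Its paralog Rhebl1 and the third TSC complex subunit gene Tbc1d7 had values of 0.43 and 0.26.

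The Rag GTPases and the Ragulator bring mTORC1 to the lysosome when amino acids are present. Of these 13 genes with the folliculin partners, 7 were lower in both Usp28 KO libraries (20.4% of all tested genes were), 1 was higher (21.4%) and 5 overlapped, and 0 passed the edgeR test (1 higher and 2 lower unadjusted). Their median log2 fold change was -0.16. Rragc had 63.2 and 55.8 CPM in CTL and 46.3 and 42.6 CPM in Usp28 KO (-0.42 ± 0.17; edgeR, adjusted p = 0.375). The folliculin partner gene Fnip2 stood at -0.35, and Lamtor2, which encodes a Ragulator subunit, at 0.43. The complexes that the sestrins act on, GATOR2 with GATOR1, KICSTOR and the amino acid sensors, had a median of 0.045 over 16 tested genes. Of these, 3 were higher in both Usp28 KO libraries (21.4% of all tested genes were), 1 was lower (20.4%) and 12 overlapped. The arginine sensor gene Castor1, the GATOR1 gene Nprl3 and the KICSTOR gene Itfg2 had the lowest p, at 0.43, 0.40 and -0.32 on the log2 scale, and 0 of the 16 passed the edgeR test (1 higher and 0 lower unadjusted).

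Upstream inputs and downstream effectors had list medians between -0.098 and 0.041, and the sign of each depended on the processing. The median over all tested genes was -0.0040, or -0.035 after GC correction. The energy sensor AMPK and its activating complex had a median of -0.020 over 10 tested genes, between -0.11 and 0.20, with Prkaa1, Prkaa2 and Prkab2 at -0.11, 0.15 and 0.20. The AMPK median was 0.059 without CTL replicate 2, and the Prkaa1 value was 0.079 after GC correction. Insulin and PI3K-AKT genes had a median of -0.098 over 15, or 0.016 after GC correction. Irs2, which encodes an adaptor of the insulin receptor, had 18.7 and 18.5 CPM in CTL and 13.1 and 15.6 CPM in Usp28 KO (-0.37 ± 0.21; edgeR, adjusted p = 0.560). Substrates and effectors of mTORC1 had a median of 0.041 over 17, or -0.11 after GC correction and -0.11 without Usp28 KO replicate 2, with 0 past the edgeR test, 0 at an unadjusted p under 0.05 and 0 called by DESeq2 or limma-voom. The translation inhibitor gene Pdcd4, the autophagy gene Atg13 and the lipin gene Lpin1 stood at 0.33, -0.28 and 0.26.

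**Figure D4:**
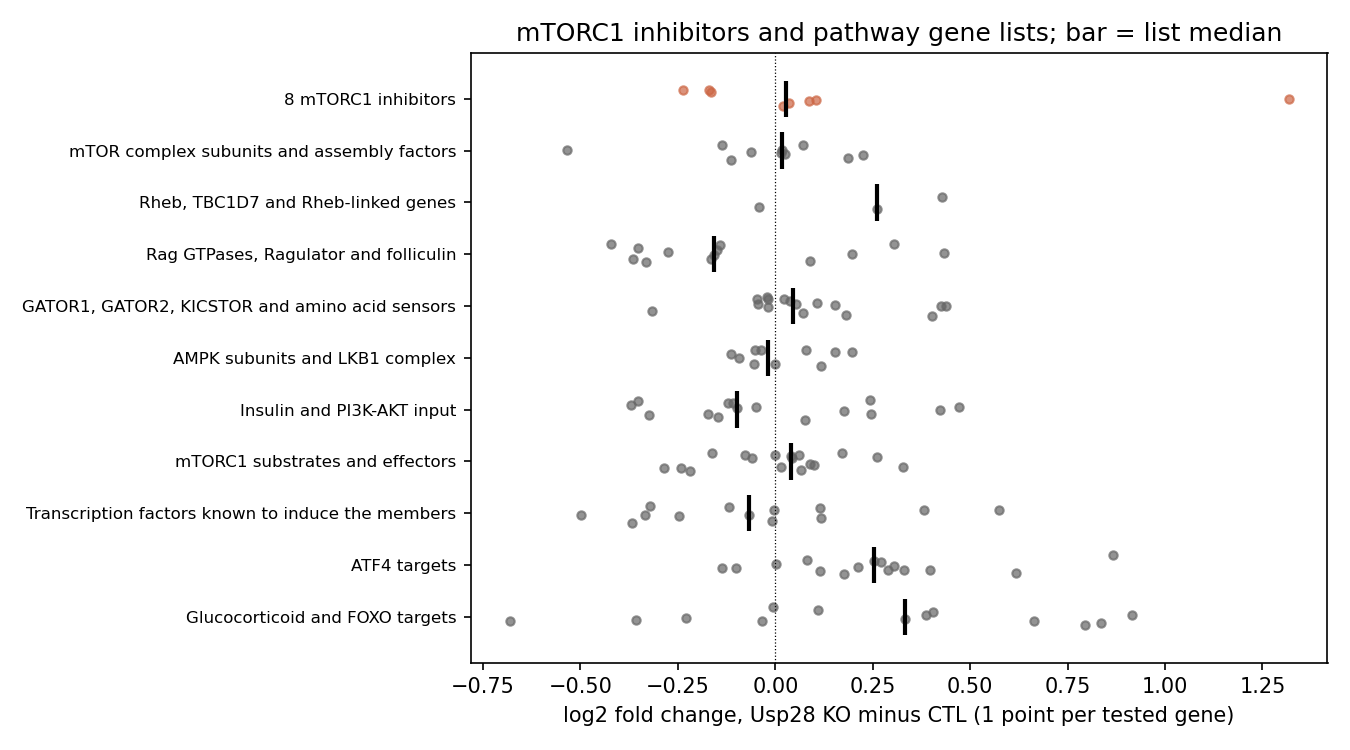
Log2 fold change of each tested gene, Usp28 KO minus CTL (points), for the 8 inhibitors (orange) and the 10 pathway lists (grey), with the list median as a bar; vertical scatter within a row carries no value. Ddit4, at 1.32, is the point farthest to the right, and the list medians lie between -0.16 and 0.33.

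Of 13 genes for transcription factors known to induce the inhibitors, 4 were lower in both Usp28 KO libraries, 1 was higher and 8 overlapped, against 20.4% lower and 21.4% higher of all tested genes, with a median log2 fold change of -0.067, and 0 passed the edgeR test (1 higher and 1 lower unadjusted). Hif1a, the oxygen-regulated subunit of HIF, had 124 and 144 CPM in CTL and 96.4 and 93.9 CPM in Usp28 KO (-0.50 ± 0.16; edgeR, adjusted p = 0.269). Trp53, the p53 gene, had 477 and 459 CPM in CTL and 352 and 391 CPM in Usp28 KO (-0.33 ± 0.16; edgeR, adjusted p = 0.478). Both factors are regulated largely as proteins, which were not measured. Ddit3, which encodes the stress factor CHOP, had 8.29 and 8.70 CPM in CTL and 9.95 and 15.4 CPM in Usp28 KO (0.58 ± 0.26; edgeR, adjusted p = 0.437). The Ddit3 value was 0.22 without Usp28 KO replicate 2 and 0.85 without Usp28 KO replicate 1.

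The 15 targets of ATF4, the factor that answers amino acid shortage, had a median of 0.25, or 0.15 after GC correction and 0.11 without Usp28 KO replicate 2. Of these, 9 were higher in both Usp28 KO libraries (21.4% of all tested genes were), 0 lower (20.4%), and 6 overlapped, and 0 passed the edgeR test (2 higher and 0 lower unadjusted). The serine synthesis gene Phgdh had 162 and 125 CPM in CTL and 202 and 176 CPM in Usp28 KO (0.40 ± 0.17; edgeR, adjusted p = 0.420), and Psat1 and the lipoprotein receptor gene Vldlr stood at 0.33 and 0.62, the latter 0.24 without Usp28 KO replicate 2. Sesn2, an ATF4 target itself, was at -0.17.

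Among 13 tested targets of glucocorticoids and FOXO factors, which share Ddit4 or Sesn3 as targets, the median was 0.33, or 0.17 after GC correction and 0.031 without Usp28 KO replicate 2. Txnip, which encodes a thioredoxin-binding protein that restrains glucose uptake and is known to bind DDIT4, rose by DESeq2. It had 227 and 195 CPM in CTL and 446 and 286 CPM in Usp28 KO, a log2 fold change of 0.79 ± 0.21 by edgeR (adjusted p = 0.176) and 0.79 by DESeq2 (adjusted p = 0.0465). With 1 library left out it ran from 0.44 without Usp28 KO replicate 1 to 1.07 without Usp28 KO replicate 2. The latter fit passed the edgeR test, but it keeps only the higher Usp28 KO library, which is assumed to vary like the CTL pair. The cyclin gene Ccng2, a FOXO target, had 34.04 and 43.4 CPM in CTL and 66.4 and 56.2 CPM in Usp28 KO (0.66 ± 0.19; edgeR, adjusted p = 0.200). It passed without Usp28 KO replicate 2, at 0.77, where again only the higher Usp28 KO library is kept and the spread comes from CTL. Tsc22d3, the glucocorticoid-induced gene for GILZ, was at 3.12 and 2.46 CPM in CTL and 5.03 and 5.55 CPM in Usp28 KO (0.91 ± 0.31; edgeR, adjusted p = 0.290). Of this list 0 passed the edgeR test on all 4 libraries (3 higher and 1 lower unadjusted), 5 genes were higher in both Usp28 KO libraries (21.4% of all tested genes were), 2 lower (20.4%), and 6 overlapped.

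The pattern of Ddit4 over the 4 libraries, lowest in CTL replicate 1 and highest in Usp28 KO replicate 1, was compared with that of 10703 genes averaging at least 5 CPM. Likeness was the root mean square difference of log2(CPM + 0.5), each gene centred on its own mean. The 5 closest were the tetraspanin gene Tspan7 (0.045), the immediate early gene Ier3 (0.045), the class I histocompatibility gene H2-Q4 (0.091), the intermediate filament gene Nes (0.098) and the claudin gene Cldn7 (0.12). H2-Q4 shares sequence with its paralogs, so its count is uncertain. Ier3 had 6.24 and 8.32 CPM in CTL and 22.1 and 15.9 CPM in Usp28 KO, and Nes had 19.1 and 21.7 CPM in CTL and 53.8 and 43.9 CPM in Usp28 KO. Likeness over 4 libraries is a description only.

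**Figure D5:**
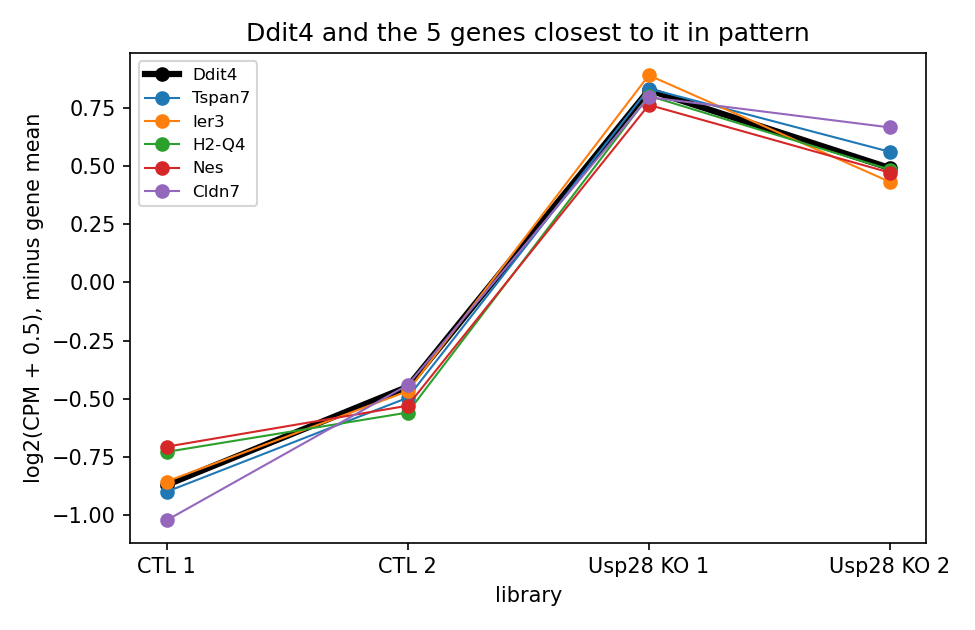
Log2(CPM + 0.5) of Ddit4 (thick black) and the 5 closest genes in each library, each minus its own mean over the 4 libraries; lines only join the points of a gene. All 6 genes are lower in both CTL libraries than in both Usp28 KO libraries and highest in Usp28 KO replicate 1. The 5 were picked for likeness to Ddit4, so this shared pattern supports nothing.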

How the data were processed

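Polyadenylated RNA of 4 libraries was sequenced. Values in the deposited table are raw counts of reads for each gene. The submitters' processing notes name HISAT2, featureCounts, DESeq2 and mm10 but no versions, and the strand setting is not given in the sources used here. Symbols came from GENCODE M21 (55141 identifiers matched, 260 did not). For Ddit3, with 2 identifiers, the one with more exon bases was taken, and Kics2 was not matched. Bcl6 and Cited2 are named after their values were seen. Promoter windows are RefSeq's, on GRCm38.p6.

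In R 4.3.3, edgeR 4.0.16 kept genes by filterByExpr (minimum count 10, minimum total 15), applied TMM (trimmed mean of M values) scaling and compared the groups with a robust quasi-likelihood fit, Benjamini-Hochberg adjustment and a threshold of 0.05. Adjusted p-values are over all tested genes. Standard errors are the log2 fold change over the root of the test's F. CPM uses the filtered library total times its TMM factor, and RPKM divides it by exon length. Both describe RNA summed over all cells, in which fewer expressing cells and less RNA per cell cannot be told apart.

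The 8 genes, the lists and the alternatives were chosen with earlier results of these data known. Named were Usp28, the 8 genes, the 3 with the smallest p in each list and the 5 closest to Ddit4; Pkd1 and Gm9920 were added because they overlap members. Values of 2 list genes are not reported here. The alternatives were DESeq2 1.42.0, limma-voom (limma 3.58.1), other scalings and filters, a replicate block, correction for GC content (natural spline, 5 degrees of freedom, GC known for 99.9% of tested genes) with and without the block, and each library left out, where the group of 1 library is assumed to vary like the other. The edgeR fit, with and without GC correction, DESeq2 and limma-voom were run on simulated counts that held no GC trend. The other alternatives were not tested in this way.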

Additional observations from a re-analysis of the deposited data

How the results depend on the processing

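Ddit4 was higher in Usp28 KO in each alternative run. Its log2 fold change was 1.12 after GC correction and 1.12 to 1.53 with a library left out, against 1.32. That of Sesn2 was -0.38 after GC correction, alone or with the replicate block, and that of Sesn1 ran from -0.38 to 0.32 with a library left out. Of 112 alternative values for the 8 genes, 105 moved by less than the gene's standard error in the edgeR fit on all 4 libraries. The counts of genes called, 0 higher and 0 lower, became 82 and 50 by DESeq2, 18 and 3 with upper-quartile scaling, 24 and 5 with library totals, 204 and 118 with no filter, 49 to 146 and 31 to 200 with a library left out, 965 and 716 with the replicate block, and 936 and 1547 with the block and GC correction. Of the 125 pathway genes, 1 was called higher by DESeq2, 2 higher and 1 lower with no filter, 0 to 2 higher and 0 to 1 lower with a library left out (Cited2 at -0.93 without CTL replicate 1, Bcl6 at 1.40 without Usp28 KO replicate 1, and Txnip, Ccng2 and Cited2 without Usp28 KO replicate 2), 9 higher and 6 lower with the block, and 8 and 17 with the block and GC correction. The counts were 0 with limma-voom, with DESeq2 size factors, with a filter of 50 counts in 2 libraries and with GC correction alone. Some log2 fold changes changed sign. Sesn3 was at -0.027 without CTL replicate 1 and -0.034 without Usp28 KO replicate 1, Deptor at -0.014 without Usp28 KO replicate 1 and Sesn1 at -0.015 by limma-voom. Prr5, at 0.22, was at -0.0060 after GC correction and -0.0048 with the block as well; Rheb at 0.015 with upper-quartile scaling, 0.020 with library totals, and -0.16 to 0.062 with a library left out (0.0078 without CTL replicate 1); Prkaa1 at 0.079 after GC correction, 0.071 with the block as well, and -0.24 to 0.016 with a library left out. The cause was not tested. Replicate numbers are shared between the groups without a stated meaning; the deviations of same-numbered libraries correlated at 0.354 across genes, which with 2 pairs does not establish pairing. The order of levels was the same in TPM (transcripts per 1000000).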
